A study of Mus musculus with 36 samples.

Results

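Long noncoding RNAs in the bound and unbound forebrain fractions of 18 mice were followed through 8 genes: Meg3, Rian, Mirg, Kcnq1ot1, Malat1, Neat1, Miat and Snhg11. Every array probe set annotated to 1 of these 8 gene symbols was taken, which gave 36 of the 45037 probe sets on the array that are not controls, or 8 of its 18194 named genes (11 for Meg3, 7 for Malat1, 6 for Kcnq1ot1, 4 for Rian and 2 each for Mirg, Neat1, Miat and Snhg11). The genes had been chosen with their bound minus unbound difference known, so that difference is described here and not tested. Of the 36 probe sets, 28 passed the filter on dim signals and were tested between vigilance states in one fit over 28786 probe sets.

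The animals were heterozygous Cnp–eGFP-L10a mice on the C57BL/6 strain, in which the Cnp promoter, active in oligodendrocytes, drives a ribosomal protein L10a fused to a green fluorescent protein. Each forebrain gave a bound sample, the RNA that came down with the tagged ribosomes, and an unbound sample, the RNA of the supernatant. Of the animals, 6 were asleep before they were killed (between 3 and 5 pm, with at least 75% of the previous 6 to 7 h asleep), 6 were spontaneously awake (between 3 and 5 am, at least 70% of that time awake) and 6 were sleep deprived in the light period for 4 h by exposure to new objects. Sleep and waking thus also differed in clock time, and state and time of day cannot be told apart in that comparison. The same holds for sleep deprivation, done in the light period, against waking, with animals killed between 3 and 5 am. Bound and unbound RNA were purified with different kits, per the labels' protocols, so that fraction and purification cannot be told apart either. The labels number the animals separately, and the number of arrays, 6 per group, limits the precision.

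Long noncoding RNAs are transcripts without a known protein product. Many of them stay in the nucleus, where they hold together nuclear bodies or act on the chromatin of neighbouring genes, while ribosomes are in the cytoplasm. In brain, Meg3, Rian and Mirg are transcribed from the maternal chromosome of the Dlk1-Dio3 imprinted domain and carry microRNAs and small nucleolar RNAs, and Malat1 and Neat1 are partners of nuclear speckles and paraspeckles, the bodies that store and process splicing and RNA binding proteins.

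In the RefSeq annotation 15 microRNA genes lay among the 16 genes between Meg3 and Rian, and 30 microRNA and 8 small nucleolar RNA genes among the 40 between Rian and Mirg, with 0 protein-coding genes in either interval. Inside the genes themselves lay 1 microRNA hairpin for Meg3 (Mir770), 3 for Rian and 10 for Mirg. Malat1 and Neat1 were direct neighbours, with 0 genes between them. A promoter sequence was matched for 7 of the 8 genes (RefSeq, GRCm38.p6, 250 bases before to 50 after the transcript start), and Neat1 is named only. The promoters of Meg3 and Malat1 are printed 5′ to 3′ because Meg3 has the most probe sets and Malat1 had the most calls between vigilance states. Meg3 is at chr12:109540746-109541045 on the plus strand and Malat1 at chr19:5802623-5802922 on the minus strand. Capitals mark the cyclic AMP response element TGACGTCA.
Meg3: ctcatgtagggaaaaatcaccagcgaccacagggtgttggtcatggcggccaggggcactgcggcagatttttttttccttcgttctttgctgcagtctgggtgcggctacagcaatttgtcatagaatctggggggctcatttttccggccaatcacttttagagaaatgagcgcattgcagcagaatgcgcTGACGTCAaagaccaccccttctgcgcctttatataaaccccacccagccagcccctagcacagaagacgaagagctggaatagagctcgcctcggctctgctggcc
Malat1: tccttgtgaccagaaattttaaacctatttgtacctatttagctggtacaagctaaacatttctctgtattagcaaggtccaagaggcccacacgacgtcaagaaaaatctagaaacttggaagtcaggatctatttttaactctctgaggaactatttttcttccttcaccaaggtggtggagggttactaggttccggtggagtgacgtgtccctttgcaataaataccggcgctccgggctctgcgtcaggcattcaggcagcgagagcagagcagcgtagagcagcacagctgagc

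The element in the printed Meg3 promoter, the upstream one of 2 annotated for the gene, begins 57 bases upstream of the start. It reads the same on both strands and was present in 1.79% of 32851 promoters of this length. The letters GAANNTTC, a pair of heat shock units, were found in the Rian promoter 102 bases upstream of the start (7.86% of promoters). The E-box CACGTG (7.15% of promoters) and the AP-1 letters TGANTCA (7.81%) were not in the windows of the matched genes. Each search covered both strands, and a match is a description of the sequence alone.

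Marker genes of oligodendrocytes separated the fractions, and neither fraction was pure. All 16 measured myelin markers were higher in the bound arrays (median 3.06 log2), among them Cnp itself (1.24 log2). Of 14 neuron markers 14 were lower (median −1.19 log2), as were 13 of 14 astrocyte and 11 of 11 microglia markers (medians −1.95 and −2.04 log2). The summed log2 level of the neuron list was 148.6 to 155.6 in bound and 168.5 to 172.5 in unbound arrays, and that of the myelin list 198.8 to 202.5 and 145.8 to 158.1, so neuron RNA was still present in the bound and myelin RNA in the unbound arrays. None of these lists had a marker at 0, a value the log2 signals do not take. The 3 animals numbered waking 3, waking 5 and sleep deprivation 11 stood apart from the other 15 by low levels of Y-linked genes, and calls that end without them are given below. In bulk samples of this kind, fewer cells of a type and less RNA per cell cannot be told apart.

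The long noncoding RNAs were mostly lower in the bound fraction, several of them by more than 10-fold. On average 35 of 36 probe sets were lower in bound than in unbound arrays, and 30 of 36 were lower in every one of the 18 animals. The background was high as well: 68.7% of all tested probe sets were lower on average, and 31.9% were lower in all 18 animals. By the test, 59.7% were called lower in the bound fraction. Of the 28 tested long noncoding RNA probe sets, 27 were lower on average and 27 in all 18 animals. The median difference was −2.60 log2 over the 36 probe sets and −0.40 log2 over all tested probe sets. The exception was the leading probe set of Neat1, the leading probe set being the one with the highest mean over all arrays.

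**Figure D1:**
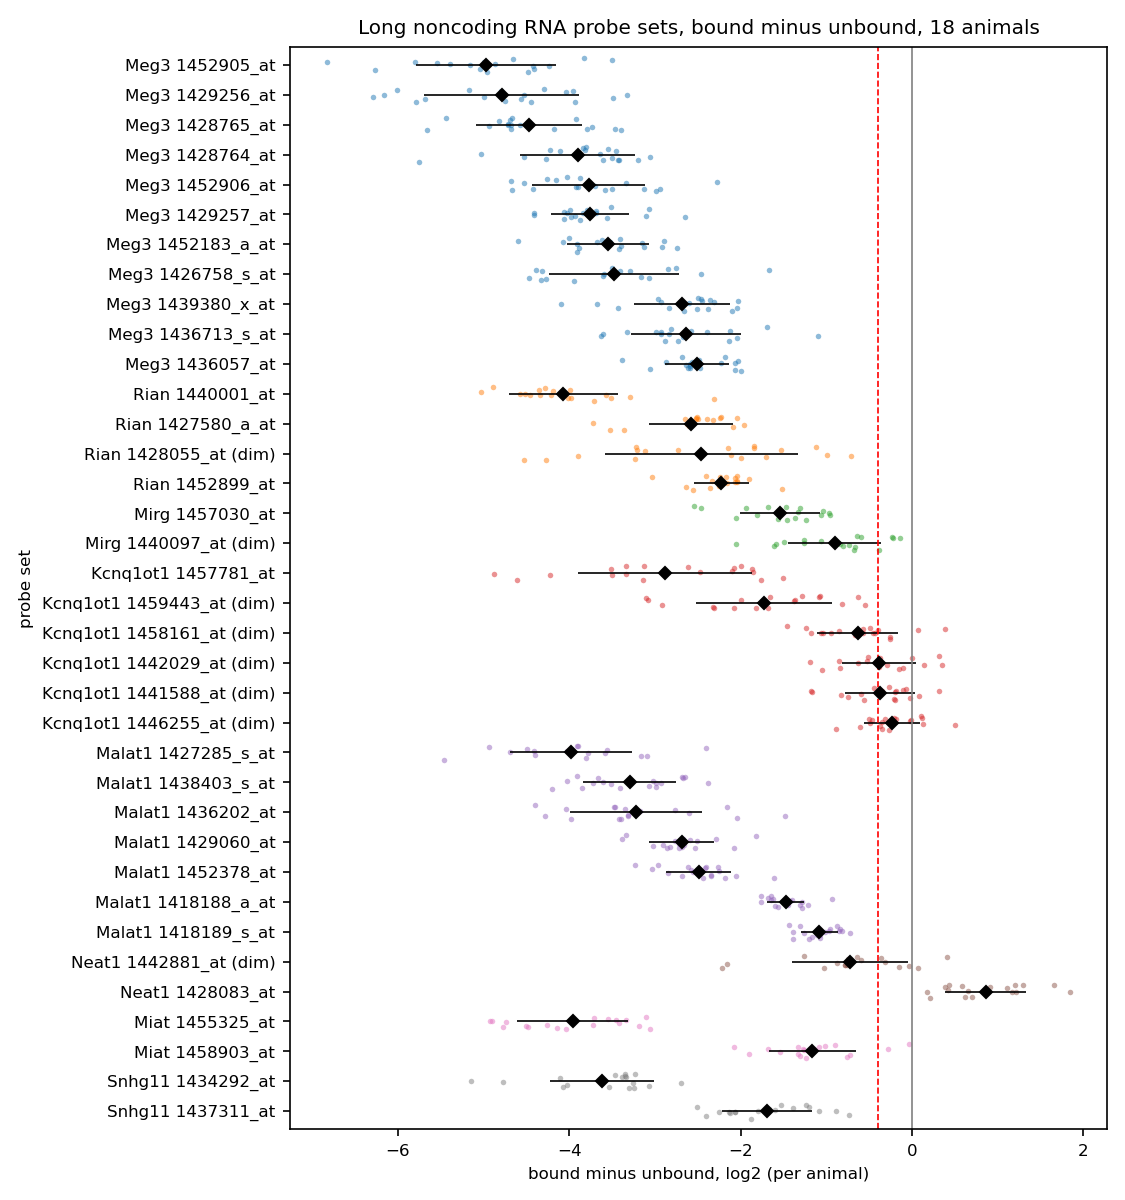
Bound minus unbound log2 signal of the 36 probe sets of the 8 long noncoding RNAs; each coloured point is 1 of 18 animals, the diamond and bar are the mean and SD, the grey line is 0 and the red dashed line the median of all tested probe sets (−0.40). Probe sets marked dim did not pass the filter. Meg3 lies furthest to the left, down to −4.97 on average, and the leading Neat1 probe set, 1428083_at, is to the right of 0 in all animals.

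Among the transcripts of the Dlk1-Dio3 domain, Meg3, a nuclear RNA that binds chromatin regulators, had the lowest values. Its leading probe set 1428764_at was at 8.55 ± 0.73 log2 in bound and 12.45 ± 0.19 log2 in unbound arrays (SD, n = 18). The difference was −3.90 ± 0.67 log2 (SD over 18 animals), or 14.9-fold lower in bound, and its range was −5.75 to −3.05. All 11 Meg3 probe sets were lower in all animals, with means between −4.97 (1452905_at) and −2.51 log2 (1436057_at). Rian, a host of small nucleolar RNAs, was 4.67-fold lower at its leading probe set 1452899_at (−2.22 ± 0.32 log2), and its 4 probe sets ranged from −4.07 to −2.22. Mirg, a host of microRNAs, was the least shifted of these 3 genes, at −1.54 ± 0.47 log2 for 1457030_at and −0.90 ± 0.54 log2 for the dim 1440097_at.

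The protein-coding genes in and beside this domain did not share one shift: 3 of 6 were lower and 3 higher in bound arrays, with a median of −0.06 log2. Dlk1, a Notch ligand homologue transcribed from the other parental chromosome, was at −2.37 ± 0.60 log2. Slc25a29, a mitochondrial carrier, was at 0.73 log2.

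Miat, a nuclear RNA known from neurons and retina, and Snhg11, a host gene of small nucleolar RNAs, were as far down as Meg3 at their leading probe sets and less so at their second ones. The leading Miat probe set 1455325_at was at −3.96 ± 0.65 log2 (15.6-fold lower), and the dimmer 1458903_at at −1.16 ± 0.51. The leading Snhg11 probe set 1434292_at was at −3.61 ± 0.61 log2 (12.2-fold lower) and 1437311_at at −1.70 ± 0.53. The leading probe sets of Meg3, Miat and Snhg11 all lay below the lowest neuron marker, Slc17a7, the vesicular glutamate transporter of excitatory neurons, at −2.78 log2. In total 15 of 36 probe sets did, among them 8 of 11 for Meg3 and 3 of 7 for Malat1. This count is uneven, since each marker is given by its leading probe set alone and the long noncoding RNAs by all of theirs. The part of neuron RNA content in these differences was not tested.

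Malat1, the RNA of nuclear speckles, was lower in bound arrays by amounts that depended on the probe set. Its leading probe set 1418189_s_at was at 13.24 ± 0.27 log2 in bound and 14.32 ± 0.15 log2 in unbound arrays, a difference of −1.08 ± 0.22. The other 6 ranged from −1.47 (1418188_a_at) to −3.98 log2 (1427285_s_at), and all 7 were lower in all 18 animals. The brightest probe sets, 1418189_s_at and 1418188_a_at, had the smallest differences. The dimmest, 1436202_at, had a bound mean of 3.97 log2, under the 90th percentile (4.28 log2) of 150 probe sets of genes not used in brain. Probe sets of a gene share their target and are not replicates of it, and those whose names end in _s_at or _x_at can match more than 1 transcript.

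Neat1, the RNA that builds paraspeckles, ran the other way at its leading probe set. The 1428083_at signal was 8.66 ± 0.44 log2 in bound and 7.80 ± 0.40 log2 in unbound arrays, higher in bound in all 18 animals by 0.18 to 1.84 log2 (mean 0.86 ± 0.48, 1.81-fold). The other probe set, 1442881_at, was dim (3.89 and 4.61 log2) and lower in bound by 0.72 ± 0.67 log2 in 16 of 18 animals. The 2 probe sets of Neat1 thus differed in sign. However, 1442881_at lay in both fractions under the 90th percentile of 150 probe sets of genes not used in brain (4.28 log2 bound, 4.78 log2 unbound). At that level its difference gives no direction for Neat1.

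Kcnq1ot1, the antisense RNA that silences genes of the Kcnq1 imprinted domain, was measured by 1 probe set above the filter. That probe set, 1457781_at, was at 2.52 ± 0.26 log2 in bound and 5.41 ± 1.09 log2 in unbound arrays, a difference of −2.88 ± 1.02. Its bound level lay under the median of 150 probe sets of genes not used in brain, such as olfactory receptors (2.88 log2 in bound, 3.18 in unbound arrays), so it was not above the level of unused genes there. The other 5 were at −0.23 to −1.73 log2, and 2 of them, 1441588_at and 1446255_at, turned to 0.23 and 0.30 log2 when all 36 arrays were quantile normalized. That scaling moved the median of all probe sets from −0.40 to 0.05 log2 and left 33 of 36 probe sets lower. Over the 8 genes, 12 of 36 probe sets had a bound mean under 4.28 log2, the 90th percentile of these unused genes.

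**Figure D2:**
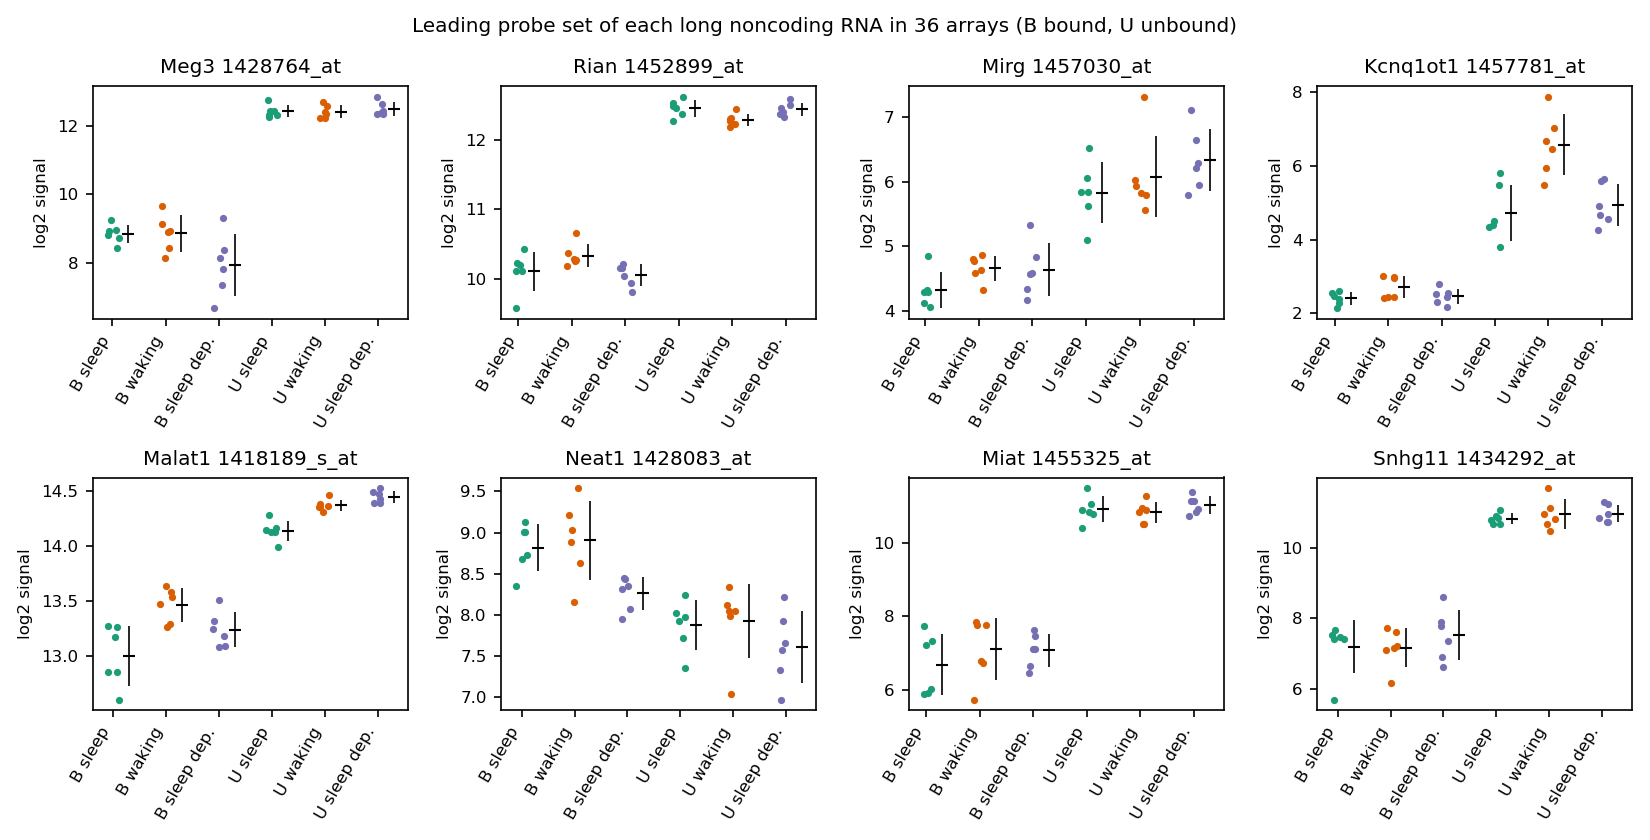
Log2 signal of the leading probe set of each long noncoding RNA in the 36 arrays, by fraction (B bound, U unbound) and state; points are arrays and the bar beside them is the mean ± SD of 6. Each panel has its own axis. Malat1 unbound levels in waking and sleep deprivation (14.31 to 14.52) lie above those in sleep (13.99 to 14.28), and Kcnq1ot1 is raised in unbound waking arrays.

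Other long noncoding RNAs were lower in bound arrays too, by less on average. Of 34 measured other long noncoding RNAs 28 were lower (median −0.84 log2), from −4.89 log2 for Mir124a-1hg, the host gene of a neuronal microRNA, to 2.93 log2 for Sox2ot, a transcript that overlaps Sox2. Small nucleolar RNA host genes were lower in 12 of 14 cases (median −1.01 log2), with Snhg7 at −1.96 and Snhg5 at 0.97 log2. With 1 probe set per gene, 547 tested genes annotated as lncRNA, apart from the members, had a median of −0.67 log2 against −0.34 log2 for 13213 protein-coding genes. More than 4-fold lower in bound were 14.6% of those lncRNA genes and 7.92% of the protein-coding genes, and 36.2% and 30.9% were lower in all animals. The lncRNA genes were also dimmer, with a median unbound level of 5.89 log2 against 8.27 log2. The part of signal level in this contrast was not tested. The protein partners of Malat1 and Neat1 were not lower as a list: the medians were 0.16 log2 for 21 nuclear speckle and 0.07 log2 for 17 paraspeckle protein genes.

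**Figure D3:**
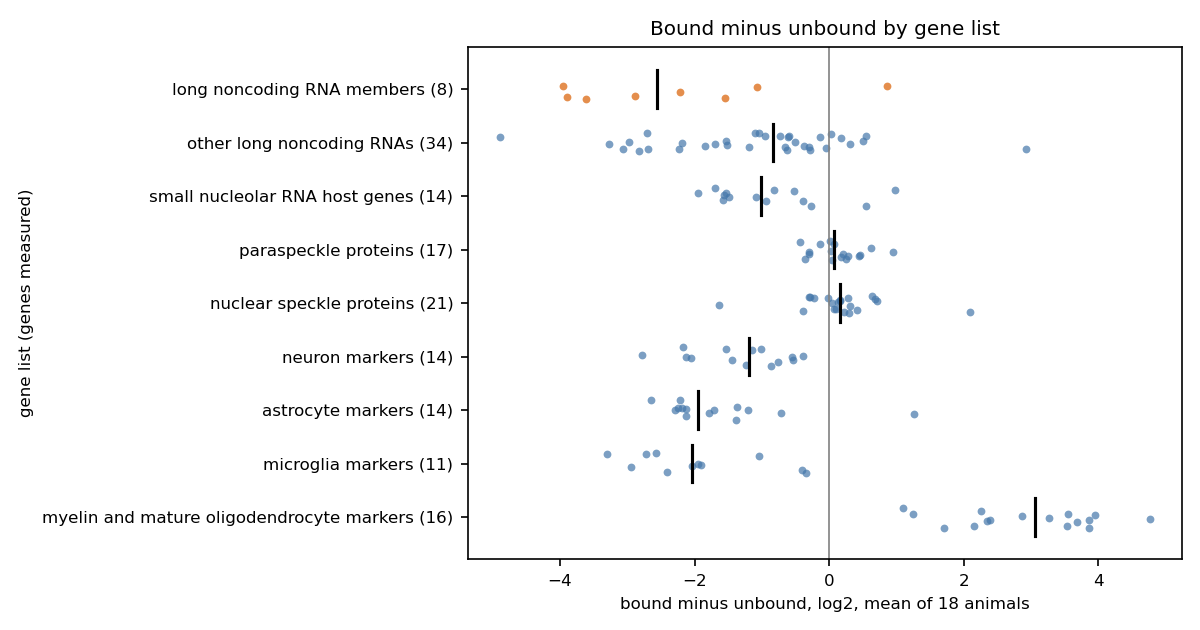
Bound minus unbound log2 difference (mean of 18 animals) of single genes, by gene list, with the number of genes measured in brackets; black bars are list medians and the grey line is 0. Orange points are the leading probe sets of the 8 long noncoding RNAs, 7 of which lie left of 0, while all 16 myelin markers lie right of it.

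Malat1 was the long noncoding RNA with the most calls between vigilance states. In unbound arrays all 7 of its probe sets rose in waking and all 7 rose in sleep deprivation compared with sleep, by 0.16 to 1.17 and 0.17 to 1.14 log2. The leading probe set 1418189_s_at ran from 13.99 to 14.28 log2 (median 14.13) in sleep, from 14.31 to 14.46 (median 14.36) in waking and from 14.39 to 14.52 (median 14.45) in sleep deprivation. All 6 sleep arrays were below all 12 others.

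The rise of this probe set was 0.23 ± 0.04 log2 in waking (SE, limma, adjusted p = 0.000872) and 0.31 ± 0.04 log2 in sleep deprivation (adjusted p = 3.97e-05). The probe set 1427285_s_at moved further, from 11.96 to 12.64 log2 in sleep (median 12.30) to 12.75 to 13.31 in waking (median 13.08) and 12.90 to 13.36 in sleep deprivation (median 13.09), a rise of 0.73 ± 0.11 and 0.79 ± 0.11 log2 (adjusted p = 0.00056 and 0.00018). The dimmest, 1436202_at, had the largest and least precise rise, 1.17 ± 0.32 and 1.14 ± 0.32 log2 (adjusted p = 0.0294 and 0.0337), and its groups overlapped. These 2 calls ended when sleep 2, 3 or 4 was left out, and also without waking 2, 3 or 4 (adjusted p up to 0.0663) or without sleep deprivation 7, 8, 9, 10 or 11 (up to 0.0759). Without the 3 animals set apart they ended as well (adjusted p = 0.122 and 0.0574). The other 6 probe sets kept both calls whichever animal was left out.

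For 6 of 7 Malat1 probe sets the sleep arrays did not overlap the waking arrays, and for 6 of 7 they did not overlap the sleep deprivation arrays. Over all tested probe sets 1.79% were called higher in unbound waking and 4.72% in unbound sleep deprivation compared with sleep, and 1.09% and 3.15% were higher without overlap. Both comparisons use the same 6 sleep arrays. Sleep deprivation and waking differed by −0.03 to 0.08 log2 in the unbound arrays, and limma called 0 of the 7 Malat1 probe sets there (1 at an unadjusted p under 0.05). For 1418189_s_at the 95% interval of that difference was 0.00 to 0.15 log2.

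In bound arrays Malat1 rose in waking at 4 of 7 probe sets and in sleep deprivation at 1 of 7, against 5.08% and 8.05% of all tested probe sets called higher. The probe set 1418188_a_at was at 12.11 to 12.29 log2 in sleep (median 12.19), 12.53 to 13.08 in waking (median 12.71) and 12.24 to 12.74 in sleep deprivation (median 12.57). Waking lay wholly above sleep (0.55 ± 0.09 log2, adjusted p = 0.000677), and sleep deprivation overlapped with it (0.34 ± 0.09 log2, adjusted p = 0.0134). The call of 1429060_at (0.59 ± 0.17 log2 in waking, adjusted p = 0.0343) ended when sleep 1, 2, 3 or 5 or waking 3, 4 or 6 was left out (up to 0.0788), and without the 3 animals set apart (0.55 log2, adjusted p = 0.123). The leading probe set rose by 0.46 ± 0.11 log2 in waking (adjusted p = 0.00999) and was at 0.23 ± 0.11 log2 in sleep deprivation (adjusted p = 0.151).

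All 7 bound differences from sleep were above 0 in both states. A test of the per-animal difference called no Malat1 probe set as changing by another amount in the bound than in the unbound fraction: limma gave 0 of 7 for waking (3 at an unadjusted p under 0.05) and 0 of 7 for sleep deprivation (1 unadjusted). For the leading probe set the waking change was larger in bound by 0.23 ± 0.13 log2, with a 95% interval of −0.05 to 0.50.

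Of 14 neuron markers, 0 rose and 1 fell in unbound waking (median −0.04 log2), and 1 rose and 0 fell in unbound sleep deprivation (median 0.04 log2). Of 16 myelin markers, 1 rose and 4 fell in unbound waking (median −0.23 log2), and 3 rose and 1 fell in unbound sleep deprivation (median −0.03 log2). Over all tested probe sets 1.79% were called higher and 6.16% lower in unbound waking (median −0.09 log2). In unbound sleep deprivation 7.86% were called, 4.72% as higher (median 0.02 log2). The part of these marker shifts in the Malat1 rises was not tested. The unbound Malat1 calls held under quantile normalization of all arrays (7 and 7) and fell to 6 and 6 without the 3 animals set apart. Without the trend in the prior variance, 6 of the 7 sleep deprivation calls remained. The unbound waking calls of all 8 genes together went from 10 to 9 without the trend, and to 8 with the replicate number as a block. The unbound Malat1 calls fell most when all 36 arrays shared one estimate of the spread with the animal as a random block. They were then 1 of 7 in waking and 2 of 7 in sleep deprivation. The spread within a group was larger in bound than in unbound arrays for 6 of the 7 probe sets, 0.20 against 0.07 log2 for the leading one.

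**Figure D4:**
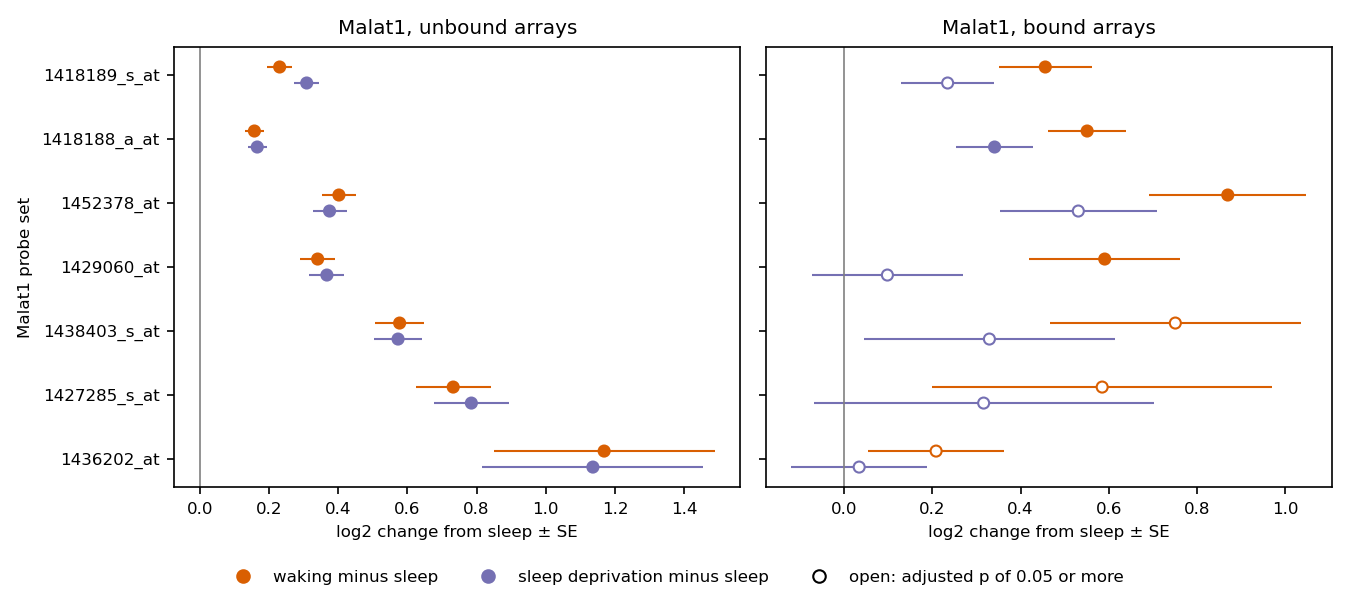
Change of the 7 Malat1 probe sets from sleep, in log2 ± SE, for waking (orange) and sleep deprivation (purple) in unbound (left) and bound (right) arrays; filled circles have an adjusted p under 0.05 (limma) and open ones do not. All 14 unbound changes are filled, against 5 of 14 in bound arrays, and all points lie right of 0.

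Genes of the bodies that Malat1 and Neat1 belong to changed in mixed directions. Of 21 nuclear speckle protein genes, 1 rose and 4 fell in unbound waking, and 3 rose and 3 fell in unbound sleep deprivation, while 5 rose and 1 fell in the bound arrays in each state. Over all tested probe sets 7.94% and 7.86% were called in unbound waking and sleep deprivation, and 9.91% and 14.7% in bound arrays. Srsf10, a splicing factor of the SR protein family, rose in unbound arrays by 0.44 ± 0.07 and 0.58 ± 0.07 log2 (adjusted p = 0.00117 and 6.5e-05). Srsf5, of the same family, fell by 0.81 ± 0.17 and 0.88 ± 0.17 log2 there (adjusted p = 0.00624 and 0.00317) and was at −1.28 ± 0.28 and −1.67 ± 0.28 log2 in bound arrays (adjusted p = 0.00596 and 0.000482). In bound arrays Pnn, a speckle protein that couples splicing to mRNA processing, rose by 0.63 ± 0.11 and 0.78 ± 0.11 log2 (adjusted p = 0.00101 and 7.55e-05).

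Of 17 paraspeckle protein genes, 0 rose and 1 fell in unbound waking and 2 rose in unbound sleep deprivation. Cpsf6, a subunit of the mRNA 3′ end processing complex, rose there by 0.47 ± 0.12 log2 (adjusted p = 0.022). In bound arrays 2 rose and 2 fell in waking, and 3 rose and 2 fell in sleep deprivation. The shares over all tested probe sets are those given for the speckle genes. Tardbp, the RNA binding protein TDP-43, rose by 0.54 ± 0.14 and 0.70 ± 0.14 log2 (adjusted p = 0.0191 and 0.00244).

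Neat1 itself did not pass the test in any state comparison. The leading probe set was at 8.35 to 9.12 log2 in bound sleep (median 8.87), 8.16 to 9.54 in bound waking (median 8.95) and 7.94 to 8.44 in bound sleep deprivation (median 8.33). Sleep deprivation was the lowest of the 3 groups and overlapped with the others. Its difference was −0.56 ± 0.19 log2 from sleep (adjusted p = 0.0572) and −0.65 ± 0.19 log2 from waking (adjusted p = 0.0515). The latter passed when arrays were quantile normalized (−0.64 log2 over all arrays, adjusted p = 0.0454) and without the 3 animals set apart (−0.81 log2, adjusted p = 0.0394). At an unadjusted p under 0.05, 2 of its 9 comparisons passed.

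Kcnq1ot1 was highest in unbound waking at its leading probe set. The probe set 1457781_at was at 3.79 to 5.81 log2 in unbound sleep (median 4.45), 5.48 to 7.87 in waking (median 6.55) and 4.25 to 5.64 in sleep deprivation (median 4.78). The waking arrays were the highest group, with a small overlap with both others. This probe set passed the filter (5.18 log2 in unbound arrays) only through its waking arrays, since its unbound mean was 6.57 ± 0.84 log2 for the waking animals but 4.72 ± 0.76 for the sleeping and 4.93 ± 0.57 for the sleep-deprived ones (SD, n = 6 each). Its place among the tested probe sets therefore depended on the group in which it is high, and the p-values that follow are to be read with that. It rose by 1.85 ± 0.38 log2 in waking (adjusted p = 0.00614) and was lower in sleep deprivation than in waking by 1.65 ± 0.38 log2 (adjusted p = 0.0107). With no filter, over 45037 probe sets, the waking rise of 1457781_at had an adjusted p of 0.00306. That setting called 6903 probe sets in this comparison, against 2287 with the filter, so its lower p-value is no stricter check. Sleep deprivation was at 0.21 ± 0.38 log2 from sleep, with a 95% interval of −0.59 to 1.00.

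The unbound waking rise held without any 1 animal (1.59 to 2.07 log2). Fits without animals kept the filter made on all arrays, so they do not address how this probe set came to be tested. The bound arrays stayed at 2.14 to 3.00 log2, the level of unused genes. Their mean was 2.41 log2 in sleep and 2.71 log2 in waking, which was not called, though its unadjusted p was under 0.05 (limma). At that level a change of the bound fraction cannot be judged. The difference of the waking change between the fractions (−1.55 ± 0.43 log2, adjusted p = 0.0375) is therefore given as a value only. It missed the threshold when sleep 1, 2, 3 or 5 or waking 1, 4 or 6 was left out (adjusted p up to 0.0804). Without the 3 animals set apart its unbound waking rise was 2.15 log2 (adjusted p = 0.00747).

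The other 5 Kcnq1ot1 probe sets were all under the filter and untested, and their unbound waking minus sleep differences ran from −0.42 to 0.23 log2, so the rise rests on 1 probe set. Of the 10 tested genes in and beside the Kcnq1 domain, 0 rose and 1 fell in unbound waking, against 7.94% of all tested probe sets called. Slc22a18, an imprinted transporter gene there, fell by 0.46 ± 0.13 log2 (adjusted p = 0.0327). In bound waking it rose by 0.52 ± 0.13 log2 (adjusted p = 0.0141).

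**Figure D5:**
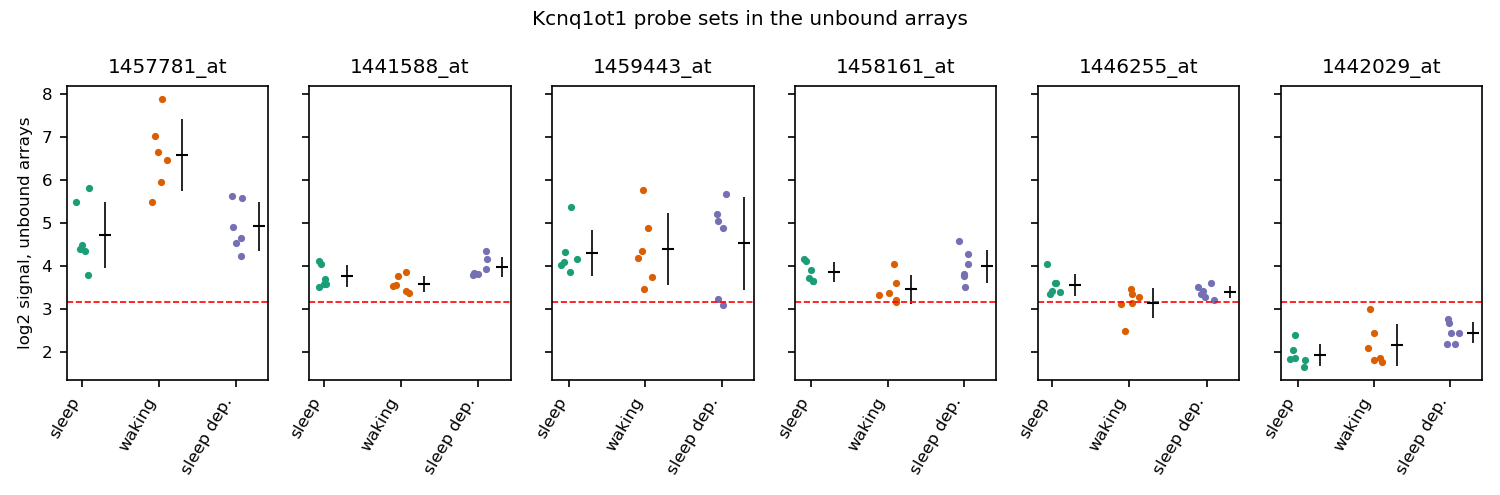
Log2 signal of the 6 Kcnq1ot1 probe sets in the 18 unbound arrays by state; points are arrays, the bar beside them is the mean ± SD of 6, and the red dashed line is the median of 150 probe sets of genes not used in brain (3.18). Only 1457781_at, the probe set above the filter, is at 5.48 to 7.87 in waking.

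Miat rose in bound arrays at 1 of its 2 probe sets, the dimmer one. The signal of 1458903_at was 4.41 to 4.69 log2 in bound sleep (median 4.56), 4.73 to 5.09 in waking (median 4.95) and 5.00 to 5.15 in sleep deprivation (median 5.09). Both groups lay wholly above sleep, by 0.38 ± 0.10 log2 (adjusted p = 0.0265) and 0.53 ± 0.10 log2 (adjusted p = 0.00219), where 3.22% and 4.25% of all tested probe sets were higher without overlap. The waking call ended without the 3 animals set apart (adjusted p = 0.0855), with the replicate number as a block (0.0937), and when sleep 4 or waking 1, 3 or 6 was left out (up to 0.0616). With the animal as a random block over all arrays both ended (adjusted p = 0.292 and 0.103).

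The leading Miat probe set, 1455325_at, was far more variable in bound arrays: 5.91 to 7.73 log2 in sleep (median 6.63), 5.74 to 7.85 in waking (median 7.28) and 6.47 to 7.62 in sleep deprivation (median 7.12). These groups overlapped widely, with differences from sleep of 0.42 ± 0.38 and 0.38 ± 0.38 log2 (adjusted p = 0.541 and 0.556). In unbound arrays it stayed between 10.41 and 11.48 log2 and its differences from sleep were −0.08 ± 0.16 and 0.12 ± 0.16 log2.

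Meg3 had its wider spread in the bound fraction. The leading probe set was at 8.42 to 9.24 log2 in bound sleep (median 8.86), 8.14 to 9.66 in bound waking (median 8.91) and 6.68 to 9.32 in bound sleep deprivation (median 7.98). The sleep deprivation arrays spread over more than 2 log2 units and overlapped with both others. Their difference from sleep, −0.90 ± 0.33 log2, did not pass the test (adjusted p = 0.0738), but did with the animal as a random block over all arrays (adjusted p = 0.0108). The 11 probe sets did not move one way there: 1428765_at was at 3.99 to 4.34 log2 in bound sleep (median 4.16) and 4.55 to 5.17 in bound sleep deprivation (median 4.71), higher without overlap by 0.62 ± 0.25 log2, though this did not pass the test (adjusted p = 0.101). In unbound arrays the leading probe set stayed within 12.22 to 12.86 log2 in all states.

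Of the 11 Meg3 probe sets limma called 0 in the 3 bound comparisons (2, 5 and 2 at an unadjusted p under 0.05 in waking, sleep deprivation and sleep deprivation against waking). In the unbound fraction it called 1: 1429257_at fell by 0.49 ± 0.13 log2 in waking (adjusted p = 0.0287), from 9.45 to 10.27 log2 in sleep (median 9.72) to 9.13 to 9.65 in waking (median 9.22). That call ended under quantile normalization (−0.41 log2, adjusted p = 0.0949), with the replicate number as a block (adjusted p = 0.0659) without the 3 animals set apart (adjusted p = 0.0928), and when sleep 1 or 3 or waking 1, 2, 4 or 5 was left out (up to 0.0688). The background of lower calls in that comparison was 6.16%. Meg3 probe sets followed each other loosely within groups, with a mean correlation of 0.05 in bound and 0.40 in unbound arrays over 55 pairs (18 arrays), against 0.53 and 0.48 for the 21 Malat1 pairs.

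Rian and Mirg gave few calls between states. The leading Rian probe set was at 12.26 to 12.62 log2 in unbound sleep (median 12.47), 12.18 to 12.44 in waking (median 12.28) and 12.33 to 12.58 in sleep deprivation (median 12.43), and its groups overlapped in every state comparison within a fraction. The waking difference was −0.17 ± 0.06 log2 (adjusted p = 0.0778). In bound arrays the dim-bound probe set 1440001_at was lower in sleep deprivation than in waking by 0.69 ± 0.19 log2 (adjusted p = 0.0324; 2.75% of all tested probe sets were called lower), and both groups, at 2.68 to 3.44 and 3.32 to 4.53 log2, were close to the level of unused genes. It ended without waking 1, 4 or 6 or sleep deprivation 6, 9 or 11 (adjusted p up to 0.0733) and without the 3 animals set apart (adjusted p = 0.0787).

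A second Rian probe set, 1427580_a_at, was higher in unbound sleep deprivation than in waking by 0.18 ± 0.05 log2 (adjusted p = 0.0186), a comparison in which the median of all probe sets was itself 0.11 log2 and 8.83% were called higher. Under quantile normalization over all arrays or within fractions this difference was 0.05 log2 (adjusted p = 0.577 and 0.581). The call also ended without the 3 animals set apart (0.16 log2, adjusted p = 0.0891), without the trend and with the animal as a random block (0.575). Mirg at 1457030_at was at 5.10 to 6.52 log2 in unbound sleep (median 5.85), 5.56 to 7.32 in waking (median 5.88) and 5.80 to 7.11 in sleep deprivation (median 6.26). The groups overlapped, and limma called 0 of 9 comparisons for it (0 at an unadjusted p under 0.05).

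Snhg11 showed its change at the dim probe set. The signal of 1437311_at was 4.98 to 6.04 log2 in unbound sleep (median 5.57), 4.53 to 5.26 in waking (median 4.80) and 4.90 to 5.63 in sleep deprivation (median 5.28). Waking was the lowest group and overlapped with sleep. Over all unbound arrays the mean of 1437311_at, 5.25 log2, was just above the filter of 5.18 log2. The waking animals alone had a mean of 4.88 log2, under the filter. The sleeping animals were at 5.55 log2 and the sleep-deprived ones at 5.32 log2. That this probe set was tested thus depended on the groups in which it is high, and its p-values are to be read with that. The waking fall of 1437311_at was 0.67 ± 0.18 log2 (adjusted p = 0.0258). The unbound fall ended under quantile normalization (−0.58 log2, adjusted p = 0.0611) and without the 3 animals set apart (adjusted p = 0.0674). It also ended when sleep 1 or 6 or waking 4 or 5 was left out (up to 0.0586). In bound arrays its mean was 3.55 log2, under the 90th percentile of unused genes (4.28 log2), and it had passed the filter through the unbound fraction alone. The bound means were 3.39 log2 in sleep and 3.66 log2 in waking, a difference that was not called. At that level a change of the bound side cannot be judged, and the difference between the fractions (0.94 ± 0.22 log2, adjusted p = 0.0155) is given as a value only. Without the 3 animals set apart it was 0.90 log2 (adjusted p = 0.0521). The leading Snhg11 probe set stayed between 10.47 and 11.69 log2 in the unbound arrays, with a waking difference of 0.13 ± 0.16 log2 (adjusted p = 0.67).

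Counted together, the 28 tested probe sets gave 5 calls in bound waking, all higher, and 2 in bound sleep deprivation, both higher, against 9.91% and 14.7% of all tested probe sets called in either direction. In unbound arrays there were 10 in waking (8 higher, 2 lower) and 7 in sleep deprivation (all higher), against 7.94% and 7.86%. Sleep deprivation against waking gave 1 call in bound and 2 in unbound arrays (5.88% and 10.5%). Of the 17 calls in the unbound comparisons with sleep, 14 were of Malat1, so the unbound counts are largely those of 1 gene. The change between states differed between the fractions for 2 of 28 probe sets in waking, a share near the 6.35% of all tested probe sets and both with bound signals at the level of unused genes, and for 0 in sleep deprivation compared with sleep or with waking (limma; 3 and 8 at an unadjusted p under 0.05; 6.74% and 5.41% of all tested probe sets called).

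The split of all unbound calls depends on the scaling of the arrays. Mean signals were nearly equal within a group (SD 0.0030 to 0.0097 log2) and differed between unbound groups (6.40, 6.33 and 6.41 log2 in sleep, waking and sleep deprivation). Of 2287 probe sets called in unbound waking, 515 were higher, and under quantile normalization 49.8% were. Of 3036 called between unbound sleep deprivation and waking, 2542 were higher, and under quantile normalization 49.0% were. The Malat1 rises and the Kcnq1ot1 rise kept their direction and call under that scaling. The same probe sets were tested there, so the dependence of the Kcnq1ot1 test on its waking arrays remained.

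Across the 18 unbound arrays, the genes whose signal was most like each long noncoding RNA were picked by Pearson correlation with its leading probe set. For Malat1 these were Setd7, a lysine methyltransferase (r = 0.92), Cpsf6 (0.92) and Rsrp1 (0.91). For Rian they were Ecm1 (0.90), Dab1 (0.82) and Tmem196 (0.81), and for Kcnq1ot1 Stk35 (0.82), Dach1 (0.80) and Eogt (0.80). For Snhg11 they were Atn1 (0.85), Crebrf (0.81) and Nufip1 (0.80), and for Mirg Uck2 (0.80), Cux2 (0.80) and Frs3 (0.79). For Miat they were Gabrb1 (0.79), Ankrd10 (0.78) and Slc25a15 (0.76), for Neat1 Slc2a12 (0.75), Cdc26 (0.70) and 2610318N02Rik (0.70), and for Meg3 Slc38a10 (0.73), Dlg5 (0.71) and Rfc2 (0.71). These values are descriptions over arrays that share their state groups.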

How the data were processed

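Each array came as deposited RMA signals in log2 units, 1 per probe set (RMA is named in the submitters' processing notes). Its version, and whether the groups were normalized together, are not given in the sources used here. No further scaling was applied. Of 45101 probe sets, 34945 had 1 gene symbol, 932 several and 9160 none, and 64 were controls. A probe set was tested when its mean reached the 40th percentile in at least 1 fraction (4.4674 log2 bound, 5.1798 log2 unbound). States were compared within a fraction, over its 18 arrays, by limma 3.58.1 (R 4.3.3, prior variance trended on the mean signal). Differences between fractions used the bound minus unbound value of each animal. A call is a Benjamini-Hochberg adjusted p under 0.05 over 28786 probe sets. The code was tested on simulated data. Figures used Python 3.11.15 and matplotlib 3.10.9, and data handling used the data.table package (1.17.8), pandas 2.3.3 and numpy 2.4.6.

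The named genes were all 8 members with every probe set, the leading one being the brightest, up to 4 genes per list by smallest p with the highest and lowest fraction difference, and the 3 most alike genes per member. The members and all lists were chosen with earlier results of these data known. Both fractions of an animal share a number and a source, so the pairing comes from the design. After group means were removed, the 2 arrays of an animal had correlations of 0.0069 to 0.0875 (0.0485 on average, and −0.0027 for arrays of different animals). Nothing in the labels pairs animals across states. Alternatives were quantile normalization, no filter, no trend, 1 probe set per gene, blocks for number or animal, and leaving out animals.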

Additional observations from a re-analysis of the deposited data

Results flagged for a closer look

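In 72 groups of 6 arrays or animals (the leading probe sets), 9 had 1 value far from the other 5 by Dixon's criterion, which chance meets in about 1 in 20 groups. Meg3 was at 12.77 log2 in unbound sleep animal 1, against 12.26 to 12.44 in the others. Rian in sleep animal 6 was at 9.59 log2 in the bound array (others 10.12 to 10.43), with a bound minus unbound difference of −3.03 (others −2.41 to −2.06). Mirg was at 4.85 log2 in the bound array of the same animal (others 4.06 to 4.31). In waking animal 3, one of those with low Y-linked genes, Mirg was at 7.32 log2 in the unbound array (others 5.56 to 6.03) and its difference was −2.46 (others −1.47 to −0.97). Neat1 was at 7.04 log2 in unbound waking animal 5, also with low Y-linked genes (others 7.98 to 8.33). Snhg11 in sleep animal 5 was at 5.70 log2 in the bound array (others 7.42 to 7.67), with a difference of −5.15 (others −3.54 to −3.23).

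The waking change differed between bound and unbound arrays by a direct test for 2 probe sets, Snhg11 1437311_at (0.94 log2) and Kcnq1ot1 1457781_at (−1.55 log2). Of all tested probe sets 6.35% were called in that comparison, so 2 of 28 is near the background. Both had bound means, 3.55 and 2.52 log2, under the 90th percentile of genes not used in brain (4.28 log2). Both passed the filter through the unbound fraction alone, so that a change in their bound arrays could not be judged. The Kcnq1ot1 call was lost in 7 of the 18 fits that left out 1 animal.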

How the results depend on the processing

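Of the 29 single probe set calls, none reversed under any alternative run. All 29 kept their call without the filter, and 26 under quantile normalization of all arrays, 25 within fractions, 26 without the trend, 20 without the 3 animals with low Y-linked genes and 12 of 27 with the animal as a random block over all arrays. Without the filter more probe sets were called in every comparison, so keeping a call there is a weak check. Only the bound minus unbound signs of Kcnq1ot1 1441588_at (0.23) and 1446255_at (0.30) turned, under quantile normalization.

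Counts are given in the order bound, unbound and fraction difference, each as waking and sleep deprivation against sleep, then sleep deprivation against waking. All called probe sets without the filter, on 45037 probe sets, were 8085, 9629, 6768, 6903, 6899, 7466, 6432, 6688 and 5860, and with 1 probe set per gene 1317, 2005, 700, 1006, 1090, 1390, 781, 906 and 673. Without the 3 animals they were 1606 (bound waking), 660 (bound sleep deprivation against waking), 1249 (unbound waking), 1567 (unbound sleep deprivation against waking), 1011 and 640 (fraction differences of waking against sleep and of sleep deprivation against waking). Unbound sleep deprivation against waking gave 1396 and 1389 under quantile normalization over all arrays and within fractions.

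Member calls without the 3 animals were 3 (bound waking), 5 (bound sleep deprivation), 1 (unbound sleep deprivation against waking) and 1 and 1 (fraction differences of waking against sleep and of sleep deprivation against waking). Without the filter they were 5 (bound sleep deprivation), 3 (bound sleep deprivation against waking) and 1 (the last fraction difference). Without the trend they were 2 and 1 (sleep deprivation against waking, bound and unbound) and 2 and 1 (the sleep deprivation fraction differences). With the random block they were 6, 4, 4, 2 and 1 in the comparisons from bound sleep deprivation to unbound sleep deprivation against waking. Quantile normalization over all arrays gave 2 (bound) and 1 (unbound), and within fractions 1 (unbound), for sleep deprivation against waking. The cause of these changes was not tested.

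With the replicate number as a block, unbound waking gave 1067 calls in place of 2287 and 8 member calls in place of 10, and bound waking 2659 and 5. The numbers share no animal between states, and same-numbered sleep and waking arrays correlated by 0.057 (bound) and 0.036 (unbound) on average. Without the animal as a block, the last fraction difference gave 3 member calls.

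Leaving out 1 animal at a time gave 2160 to 3173, 3519 to 4295, 1273 to 1641, 1709 to 2283, 1769 to 2691, 2243 to 3323, 1388 to 1925, 1570 to 2056, 1145 to 1608 calls over all probe sets, and 3 to 7, 2 to 4, 0 to 2, 7 to 10, 6 to 8, 2 to 3, 1 to 2, 0 to 1, 0 to 1 member calls, in the same order of comparisons. The lowest bound waking counts, 2160 and 3, came without waking animal 3.

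Signal limits the dim probe sets: 12 of the 36 had a bound mean, and 7 an unbound mean, under the 90th percentile of 150 probe sets of genes not used in brain.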

Other observations

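Some other long noncoding RNAs were also called between states. Over all tested probe sets the shares called were 9.91% in bound waking, 14.7% in bound sleep deprivation, 7.94% in unbound waking and 7.86% in unbound sleep deprivation. Of 27 tested in a list of such genes, 2 rose and 4 fell in bound waking, 2 rose and 2 fell in bound sleep deprivation, 2 rose and 2 fell in unbound waking, and 4 rose and 0 fell in unbound sleep deprivation, each compared with the same sleep arrays (limma). Pantr1, a transcript beside the neural transcription factor gene Pou3f3, rose in bound arrays by 0.83 ± 0.16 log2 in waking and 0.68 ± 0.16 log2 in sleep deprivation (adjusted p = 0.00301 and 0.0079). Dleu2, the host gene of microRNAs of the miR-15 family, rose in unbound arrays by 1.07 ± 0.24 and 1.39 ± 0.24 log2 (adjusted p = 0.01 and 0.00135). Jpx, an activator of the X inactivation RNA, fell by 1.09 ± 0.31 log2 in unbound waking (adjusted p = 0.036).

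Of 12 tested small nucleolar RNA host genes, 3 fell in unbound waking and 0 rose, against 7.94% of all tested probe sets called. Snhg12 fell there by 0.68 ± 0.17 log2 (adjusted p = 0.0173). In bound sleep deprivation Zfas1 rose by 0.62 ± 0.15 log2 and Snhg17 fell by 0.87 ± 0.21 log2 (adjusted p = 0.0105 and 0.00787).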
